A study of Mus musculus with 4 samples.

Results

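The genes described here are interleukin-1 (IL-1), tumour necrosis factor (TNF) and a set of genes that receive or restrain their signals. The 10 genes were chosen by symbol, for their roles: the ligands Il1a, Il1b, Il33 and Tnf, the receptors Il1r1 and Tnfrsf1a, the antagonist Il1rn, and the feedback genes Tnfaip3, Nfkbia and Tnfaip6. They are 10 of the 32285 genes of the count tables, and each of the 10 had at least 1 UMI (a distinct captured transcript molecule) in the cells analysed.

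IL-1 and TNF are secreted early after tissue damage, often by macrophages. Their receptors lead to activation of the transcription factor NF-kappaB, which in cartilage and disc cells drives chemokines, matrix-degrading enzymes and nitric oxide synthase. NF-kappaB also drives its own inhibitors, such as Nfkbia and Tnfaip3, so that the signal is self-limiting. In the intervertebral disc, the fibrocartilage pad between vertebrae, IL-1 and TNF are known as drivers of matrix loss and pain.

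Single-cell RNA sequencing was performed on tail discs of female wildtype C57BL/6 mice aged 12 weeks. Injured discs were punctured on both sides with a 30G needle and taken after 7 days, and unpunctured control discs came from more distal levels of the same tails, so that tail level and injury cannot be told apart. Each of 2 rounds gave 1 control and 1 injured library. Discs of 6 mice, 30 discs per group, were pooled into 1 suspension, frozen, thawed and sorted for viable cells, and the labels do not say whether these numbers hold for each round. A library is therefore a pool of mice, and the replicate is the library. The p-values of fits on injury alone measure the spread between 2 pools per group. Fits that pair the 2 libraries of a round measure the spread of the differences within rounds. Those of macrophage-like against disc cells compare 2 cell classes within the same 2 injured libraries.

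A barcode counted as a cell when 250 or more genes were detected, which left 378 control and 778 injured cells in round 1 and 856 control and 1834 injured cells in round 2. Values listed for the 4 libraries keep this order throughout. The median cell held 1061.5, 7033.5, 836 and 4635 UMIs. In the control library of round 1, 159 of the 378 cells had a shared barcode. A barcode counted as shared when the injured library of that round held more than 0.3 times the control cell's UMIs at it. Only control cells were left out as shared, and printed calls that end without those cells are given both ways. Cells were clustered without the 10 genes, and clusters were named from marker lists. An inner annulus or cartilage-like class had 198, 490, 255 and 1050 cells, the outer annulus or fibroblast-like class 39, 32, 55 and 385, and the macrophage or monocyte-like class 1, 39, 3 and 93. The nucleus pulposus-like class held 29, 5, 71 and 1 cells, and unnamed clusters took 26.7%, 20.6%, 54.3% and 14.7% of the cells. Levels are given in CPM, the UMIs of a gene for every 1000000 UMIs of the same cells, and intervals on them are exact Poisson 95% intervals that cover counting error only.

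The promoters of the 10 genes were read first, since Nfkbia and Tnfaip3 are textbook targets of NF-kappaB. RefSeq tables of build GRCm38.p6 gave 15 windows of 300 bases, 250 before and 50 after a transcription start, and all 10 genes had at least 1 window. The consensus motif of NF-kappaB, searched on both strands, was found in 3 of the 15 windows, 1 each of Tnfaip3, Nfkbia and Il1r1. It was found in 8.46% of all 32851 windows of that length. In Il1r1 the match lay 232 bases before the start of the second listed window. The 130 bases before the start of Tnfaip3 (chr10:19015411-19015540, minus strand, matches beginning 125 and 12 bases before the start) and of Nfkbia (chr12:55492648-55492777, minus strand, match beginning 29 bases before the start) are shown 5′ to 3′, with the matched bases in capitals.
Tnfaip3: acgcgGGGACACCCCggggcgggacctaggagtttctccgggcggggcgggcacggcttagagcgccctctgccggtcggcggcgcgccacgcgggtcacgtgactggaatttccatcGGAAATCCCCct
Nfkbia: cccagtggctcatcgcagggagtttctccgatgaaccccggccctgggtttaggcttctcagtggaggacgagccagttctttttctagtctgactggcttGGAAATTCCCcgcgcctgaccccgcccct
A match is a description of the letters and not of binding, and its absence from the windows of the other 7 genes says only that these letters are not there.

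The genes lie on 7 chromosomes of the mouse genome (GRCm38/mm10, GENCODE vM21), and all 10 are protein-coding. Il1a (chromosome 2, 129299610 to 129309972, minus strand) and Il1b (chromosome 2, 129364570 to 129371139, minus strand) are neighbours, and Il1rn (chromosome 2, 24336853 to 24351494, plus strand) and Tnfaip6 (chromosome 2, 52038009 to 52056686, plus strand) are on the same chromosome. Il1r1 is on chromosome 1 (40225080 to 40317257, plus strand), Tnfrsf1a on chromosome 6 (125349362 to 125362484, plus strand) and Tnfaip3 on chromosome 10 (19000910 to 19015657, minus strand). Nfkbia is on chromosome 12 (55489410 to 55492647, minus strand), Tnf on chromosome 17 (35199381 to 35202007, minus strand) and Il33 on chromosome 19 (29925114 to 29960718, plus strand).

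Of the UMIs found in cells of injured discs, macrophage-like cells carried most of the Il1b, and disc cells carried most of the Il33, the IL-1 receptor Il1r1 and the hyaluronan-binding protein gene Tnfaip6. Injured macrophage-like cells had more Il1b, Tnf and Il1rn per UMI than injured disc cells, and less Il1r1, Il33 and Tnfaip6. In that comparison 6 of 9 tested genes passed edgeR's adjusted p of 0.05, against 22.1% of all 11062 genes, a share that includes the genes used to form the clusters. Of the 6, 3 were higher in macrophage-like cells (9.59% of all genes were) and 3 lower (12.5%), and DESeq2 called 5 (10.8%). Il1b, Il1rn and Il33 are among the 6 and passed the low-count filter only through the class where they were higher. The count of 6 therefore rests in part on that filter. The comparison used the macrophage-like and disc-cell sums of the 2 injured libraries, with the library as a term in the fit. Il1a had too few UMIs to be tested.

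Il1b, which encodes the secreted IL-1 beta made mainly by myeloid cells, had 82 of its 87 cell-associated UMIs in macrophage-like cells in the injured library of round 1. In the injured library of round 2 it had 52 of 69 UMIs there. Its level in macrophage-like cells was 457 and 170 CPM in the injured libraries of rounds 1 and 2, against 0 and 1.196 in the inner annulus class. Both macrophage-like values lay above every disc-class value, and the log2 difference between macrophage-like and disc cells was 8.34 (SE 0.48, edgeR adjusted p = 4.17e-63). The round 1 value rested on a single cell: 1 macrophage-like cell held 80 of the 82 UMIs, and without it the level there was 11.8. With that cell left out, an alternative chosen after seeing the data, the log2 difference was 7.10 (edgeR adjusted p = 4.11e-20). Il1b was at 0.606 ± 0.857 CPM in injured disc cells (n = 2) and passed the low-count filter only through the macrophage-like sums. Neither p is therefore used as support. In round 2 the cell with the most Il1b held 13 of the 52 UMIs.

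Il1a encodes IL-1 alpha, which is active without processing and is released by dying cells. It was close to the limit of detection, with 0, 4, 4 and 7 UMIs in all cells of the 4 libraries. In the injured libraries 10 of its 11 UMIs were in macrophage-like cells and 1 was in disc cells, a ratio of levels of 330 (95% interval 46.9 to 14305). In round 1 the cell with 80 Il1b UMIs also held 3 of the 4 Il1a UMIs, and in round 2 1 cell held 4 of the 6. Without these cells Il1a was 5.92 and 6.66 CPM in macrophage-like cells.

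Tnf encodes the ligand of Tnfrsf1a. In the injured libraries it reached 128 CPM in macrophage-like cells of round 1 (23 UMIs) and 516 in those of round 2 (158 UMIs). The inner annulus class of the same libraries had 7.32 (42 UMIs) and 6.73 (45 UMIs), and the outer annulus class had 0 (with up to 8.24 allowed by a count of 0) and 1.56. The macrophage-like level was above the disc level in both rounds, by 5.45 on the log2 scale (SE 0.42, edgeR adjusted p = 3.57e-36). Inner annulus cells nevertheless contributed 62.7% of the cell-associated Tnf UMIs in round 1, where 1 cell held 16 of the 42 UMIs, and 21.5% in round 2. Within that class the Tnf UMIs of the injured libraries lay mostly in the cluster led by Mmp12, Mmp3, Cxcl1 and Nos2 in round 1 (39 of 42), but not in round 2 (14 of 45), and there it had 13.8 CPM in round 1 and 52.3 in round 2. The same cluster of the round 1 control library had 18.8 (4 UMIs), and 5.24 (1 UMI) without the shared barcodes. The summed level of the 12 macrophage markers in the inner annulus class was 63.0, 67.3, 33.4 and 56.8 CPM in the 4 libraries, against 11424 and 12650 in injured macrophage-like cells, and 5, 9, 4 and 10 of the 12 had a UMI in the inner class. The markers at 0 there were Adgre1, Ctss and Ly6c2 in the injured library of round 1 and Adgre1 and Mrc1 in that of round 2. The part of macrophage RNA in the Tnf UMIs of disc cells was not tested. Endothelial-like and mural-like cells had 0 Tnf UMIs in every library.

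**Figure D1:**
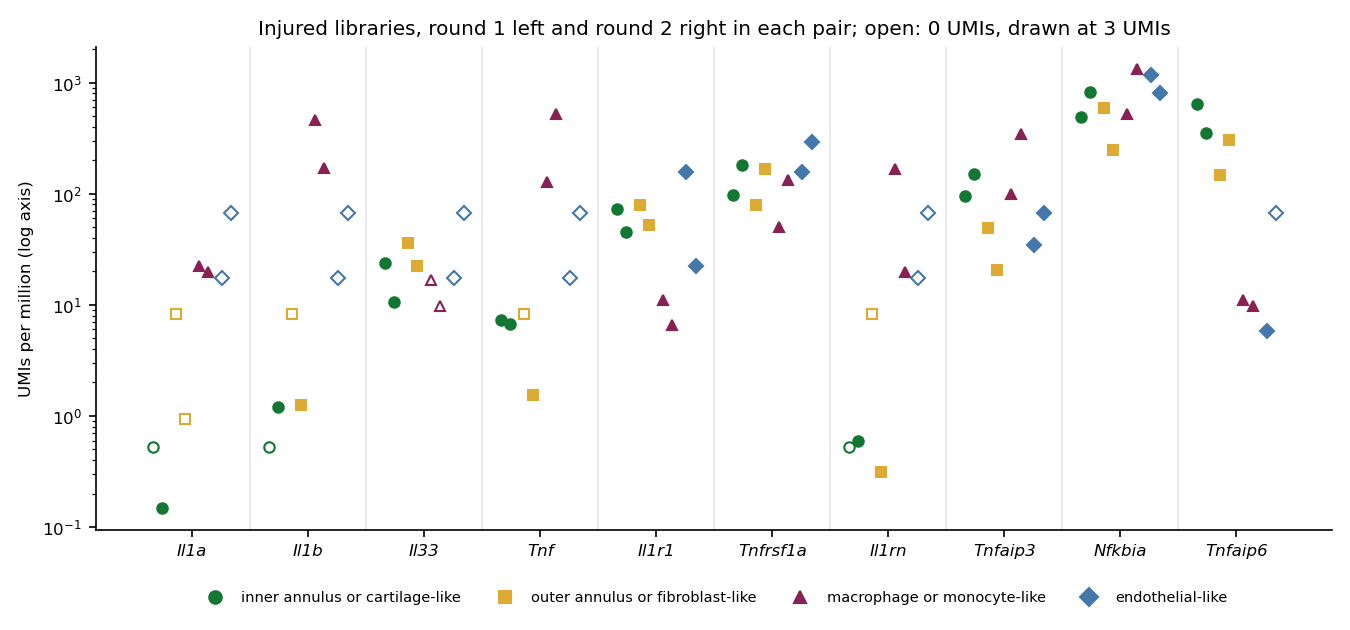
CPM (log axis) of the 10 genes in 4 cell classes of the 2 injured libraries, round 1 on the left and round 2 on the right of each pair; open symbols are classes with 0 UMIs, drawn at the level of 3 UMIs. Il1b, Tnf and Il1rn have their highest detected level in macrophage-like cells, and Tnfaip6 is higher in both annulus classes than in macrophage-like cells.

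Il1rn encodes the IL-1 receptor antagonist, which binds Il1r1 without starting a signal. All 30 of its UMIs in injured cells of round 1 were in macrophage-like cells, and 6 of 11 were in round 2, at 167 and 19.6 CPM. The log2 difference between macrophage-like and disc cells was 7.39 (SE 0.80, edgeR adjusted p = 2.29e-18). Il1rn was at 0.252 ± 0.357 CPM in injured disc cells (n = 2) and passed the low-count filter only through the macrophage-like sums. That p is therefore not used as support. The 2 rounds differed in opposite ways for the antagonist and for Tnf: Il1rn was higher in round 1 and Tnf in round 2, with counting intervals that did not overlap (Il1rn 113 to 238 and 7.19 to 42.7, Tnf 81.2 to 192 and 439 to 603). This is a difference between 2 libraries and was not tested over replicates.

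The 3 transcripts were also counted cell by cell in the macrophage-like class. In round 1, of 39 cells, 3 had an Il1b UMI, 12 a Tnf UMI and 9 an Il1rn UMI, all 3 Il1b cells also had Il1rn, and 21 had none of the 3. In round 2, of 93 cells, 19 had Il1b, 49 had Tnf, 4 had Il1rn, 11 had both Il1b and Tnf, 0 had both Il1b and Il1rn, and 35 had none. With each cell thinned to 1000 UMIs and shallower cells left out (31 and 80 cells used), the expected share with Il1b was 4.25% and 10.4%, with Tnf 11.5% and 29.5%, and with Il1rn 10.7% and 1.66%. The unthinned shares were 7.69% and 20.4%, 30.8% and 52.7%, and 23.1% and 4.30%. Disc cells gave the comparison at the same 1000 UMIs: 0% and 0.110% for Il1b, 0.424% and 0.461% for Tnf, and 0% and 0.0559% for Il1rn. How much of these disc-cell shares is free RNA was not tested. The median macrophage-like cell had 3335 and 3184 UMIs. A missing UMI at this depth does not show that a cell lacks the transcript.

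**Figure D2:**
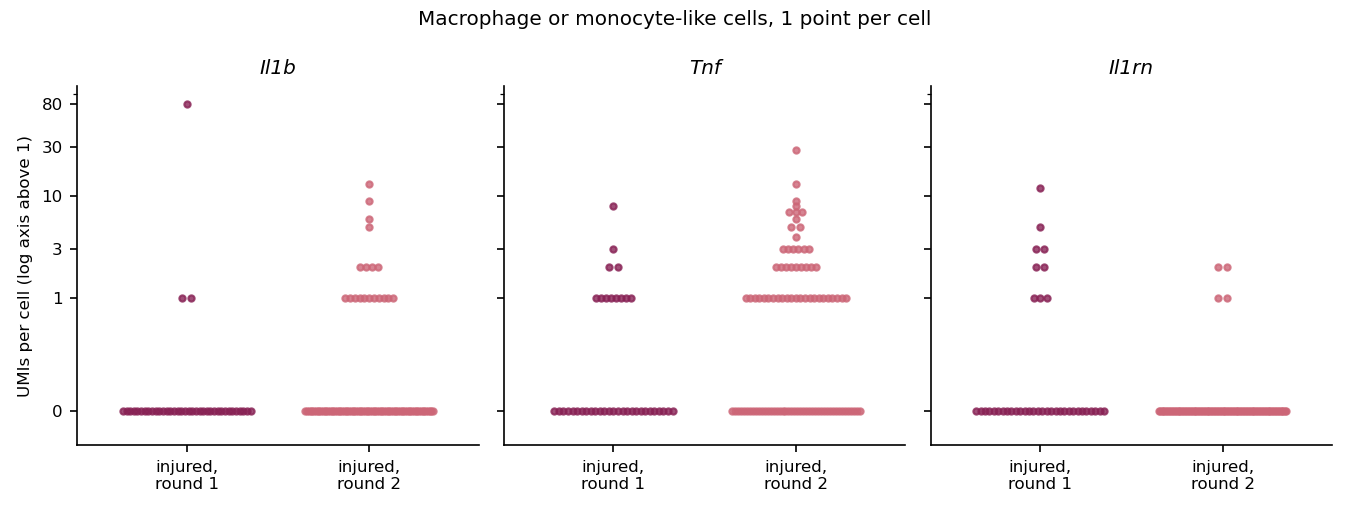
UMIs of Il1b, Tnf and Il1rn in each macrophage or monocyte-like cell (1 point per cell, axis logarithmic above 1) of the injured libraries, 39 cells in round 1 and 93 in round 2. A single round 1 cell stands at 80 Il1b UMIs, while Tnf is spread over 12 and 49 cells.

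Control discs had too few macrophage-like cells (1 and 3) for a comparison with injury. In control libraries the Il1b UMIs lay elsewhere: 9 of 10 in round 1 and 23 of 30 in round 2 were in an unnamed cluster led by Igkc, Jchain and Ighm, immunoglobulin genes of B lineage cells. That cluster held 15, 14, 37 and 4 cells of the 4 libraries. All 15 of its round 1 control cells had shared barcodes. Its B or plasma cell markers summed to 118053, 88935, 74806 and 3613 CPM and its macrophage markers to 3269, 2715, 4097 and 803. The other 7 Il1b UMIs of the round 2 control library were in 1 macrophage-like cell. Over all cells, Il1b was 9.40 CPM in control and 12.9 in injured discs of round 1, and 13.9 and 6.53 in round 2. The rounds thus went opposite ways, and edgeR gave a log2 fold change of -0.24 (SE 0.51, adjusted p = 0.96). Without the shared barcodes the round 1 control library kept 1 of its 10 Il1b UMIs, and the log2 fold change was 0.27.

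Il33 encodes an IL-1 family cytokine stored in the nucleus of stromal and barrier cells and released on damage. Most of its UMIs were in annulus cells: the outer class held 57.9%, 8.72%, 47.7% and 49.7% of them in the 4 libraries and the inner class 28.9%, 90.6%, 42.0% and 49.0%. Macrophage-like, endothelial-like and mural-like cells had 0 in every library. In macrophage-like cells of the injured libraries a count of 0 allows up to 16.7 and 9.80 CPM. Disc cells of both injured libraries together had 291 UMIs of Il33, so its level in macrophage-like cells was at least 2.94-fold lower (3 UMIs over the group as the floor). Il33 passed the low-count filter only through the disc-cell sums, so its call there (edgeR adjusted p = 0.00313) is not used as support. DESeq2 gave an adjusted p of 0.126 for that difference.

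Of the ligands, Il33 was lower in injured discs of both rounds. In the outer annulus class it was 101 CPM in control and 35.7 in injured discs of round 1, and 99.4 and 22.4 in round 2. The control values were close to each other (mean 100.2 ± 1.14 SD, n = 2), the injured values were lower (29.1 ± 9.42, n = 2), and the groups did not overlap. On the log2 scale the fold change was -1.90 (SE 0.47), and its edgeR adjusted p of 0.0613 did not pass 0.05. With the round as a block, which pairs the libraries of the same animals, it was -1.92 (SE 0.42, edgeR adjusted p = 0.000534). None of the outer annulus cells had a shared barcode, so leaving those cells out changed nothing here.

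The makeup of the outer annulus class differed between libraries. A cluster led by Myoc and Angptl7 gave 33 of 39 control and 17 of 32 injured cells in round 1, and 51 of 55 and 63 of 385 in round 2. A cluster led by Aspn, Cthrc1 and Postn gave 11 and 247 of the injured cells of rounds 1 and 2, and a dividing cluster gave 4 and 75. Il33 within the Myoc cluster was 117 CPM in control and 45.5 in injured discs of round 1, and 104 and 53.2 in round 2. It was thus lower in injured discs of both rounds in that cluster too, but neither edgeR fit called it (log2 fold change -0.94, adjusted p = 0.998, and with the round as a block -0.92, adjusted p = 0.46). In the Aspn cluster Il33 was 29.7 and 22.2 CPM in the injured libraries.

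In the inner annulus class Il33 did not separate the groups: it was 16.5 in control and 23.5 in injured discs of round 1, and 28.8 and 10.6 CPM in round 2. In all cells it was 35.7 and 22.1 in round 1 and 40.7 and 13.7 in round 2, lower in injured discs both times (38.2 ± 3.54 against 17.9 ± 5.95, n = 2). The all-cell log2 fold change was -1.04 (SE 0.38, edgeR adjusted p = 0.53), and with the round as a block -1.09 (SE 0.28, adjusted p = 0.0368). Without the shared barcodes the blocked edgeR fit gave -1.13 (adjusted p = 0.0888).

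The receptor of IL-33, Il1rl1, was higher in the injured discs in the same class. It is among the other IL-1 family genes listed, and it had 0 UMIs in outer annulus cells of both control libraries, 55.0 CPM in injured discs of round 1 and 59.4 in round 2. Over both rounds this is 211 UMIs against 0, at least 12.6-fold higher with 3 UMIs over the group as the floor. It passed the low-count filter only through the injured libraries, so its edgeR p in this class is not given as support. Its UMIs came from the Aspn cluster (17 and 103) and the dividing cluster (3 and 88) of the injured libraries. The Myoc cluster had 0 UMIs of Il1rl1 in all 4 libraries. Control discs had 9 cells in the Aspn cluster and 1 in the dividing cluster, so the part of cell makeup in this difference could not be tested.

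**Figure D3:**
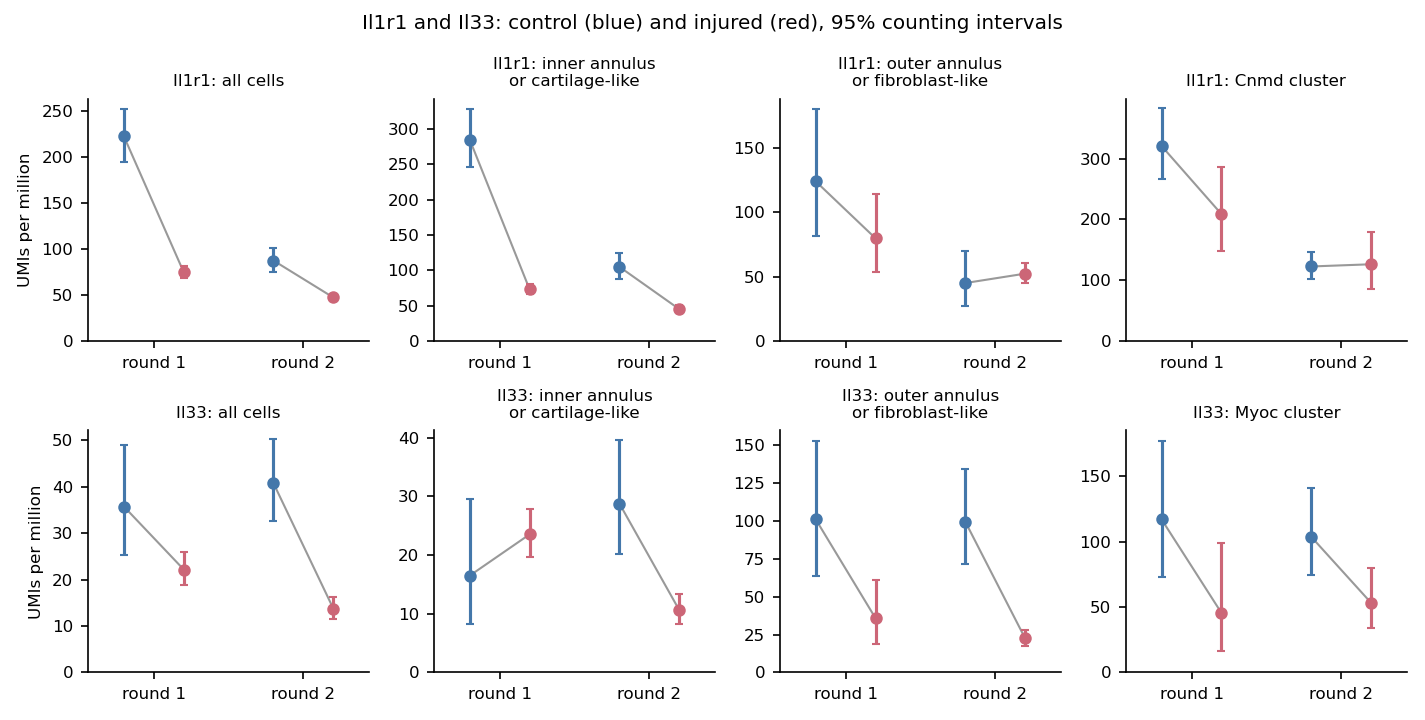
CPM of Il1r1 (top) and Il33 (bottom) in control (blue) and injured (red) libraries of each round, in all cells, the inner and outer annulus classes and 1 cluster of each, with exact Poisson 95% counting intervals. Il33 is lower in injured outer annulus cells of both rounds, and Il1r1 in the Cnmd cluster is nearly equal in round 2.

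Il1r1, the signalling receptor of both IL-1 alpha and IL-1 beta, was mainly a disc-cell transcript. Inner annulus cells held 80.2%, 83.1%, 71.4% and 60.3% of its UMIs in the 4 libraries. Among the injured classes the order by mean was mural-like cells (254 ± 62.4 CPM, n = 2), endothelial-like cells (89.5 ± 95.03), outer annulus (66.0 ± 19.4), inner annulus (58.9 ± 19.7) and macrophage-like cells (8.83 ± 3.25). Endothelial-like, outer and inner annulus cells did not differ beyond their spread. Macrophage-like cells had 2 UMIs in each injured library and were lower than disc cells by -2.96 on the log2 scale (SE 0.65, edgeR adjusted p = 5.46e-05).

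Il1r1 was lower in injured discs of both rounds. Over all cells it was 223 CPM in control and 74.8 in injured discs of round 1, and 87.5 and 47.3 in round 2. Every injured value lay below every control value, although the control libraries differed from each other (155 ± 95.6 SD against 61.0 ± 19.5, n = 2). The difference did not pass edgeR's test without the round (log2 fold change -1.30, SE 0.52, adjusted p = 0.58). It passed with the round as a block (-1.17, SE 0.27, adjusted p = 0.0214), and not in the blocked edgeR fit without the shared barcodes (-1.25, adjusted p = 0.0786).

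The difference was larger in the inner annulus class, with 285 in control and 72.8 in injured discs of round 1 and 105 and 45.0 CPM in round 2. Injured over control was 0.256 in round 1 and 0.429 in round 2. The log2 fold change was -1.61 (SE 0.53, edgeR adjusted p = 0.495), with the round as a block -1.47 (SE 0.27, adjusted p = 6.31e-05), and in the blocked fit without the shared barcodes -1.52 (adjusted p = 0.00498). At 1000 UMIs per cell, 20.4% of control and 6.88% of injured inner annulus cells of round 1 had an Il1r1 UMI, and 9.65% and 4.83% in round 2. The first share was 22.5% without the shared barcodes. Unthinned shares are not compared, since depth differed between libraries. In the outer annulus class Il1r1 was 124 and 79.7 in round 1 and 45.0 and 52.3 in round 2, with no common direction.

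The inner annulus class also differed in its makeup, and Il1r1 differed between its clusters. The 13 outer annulus or fibroblast markers summed to 7739 CPM in control and 19064 in injured inner annulus cells of round 1, and 5018 and 20466 in round 2 (12 to 13 with a UMI, Postn at 0 in the first library), and their part in the difference was not tested. The 12 markers of the inner class itself summed to 14117 and 18601 in round 1 and 11511 and 21015 in round 2. In injured cells of round 1 the outer list was thus the higher. A cluster led by Cnmd, Sfrp5 and Grem1, of which Cnmd encodes the cartilage protein chondromodulin, gave 77 of 198 and 209 of 255 control cells but 26 of 490 and 75 of 1050 injured cells. In that cluster Il1r1 was 321 CPM in control and 209 in injured discs of round 1, and 123 and 126 in round 2. The Fmod and Comp cluster had 37.0 and 22.2 in the injured libraries, and the cluster led by Saa1, Chil1 and Lcn2 had 45.1 and 52.1. Restricted to the Cnmd cluster, the log2 fold change was -0.39, and -0.30 with the round as a block (edgeR adjusted p = 1.00). The class-level difference was not called within this cluster, which held most of the inner control cells of round 2. In round 1 the Mmp12 and Mmp3 cluster had 301 in control discs, 320 without the 28 of its 48 cells that had shared barcodes, and 79.3 in injured discs.

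Tnfrsf1a, the widely expressed receptor of TNF, was found in every named class. In all cells it was 107 CPM in control and 97.2 in injured discs of round 1, and 114 and 175 in round 2. The rounds differed in direction (log2 fold change 0.38, SE 0.41, edgeR adjusted p = 0.90), and in both annulus classes the highest value was that of the injured library of round 2 (181 for inner and 167 for outer cells). By mean over the injured libraries the order was endothelial-like (223 ± 93.9), mural-like (209 ± 76.6), inner annulus (140 ± 58.5), outer annulus (124 ± 62.0) and macrophage-like cells (92.0 ± 59.3, n = 2 each), and neighbours in this order did not differ beyond their spread. Macrophage-like and disc cells differed by -0.76 on the log2 scale (edgeR adjusted p = 0.143).

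**Figure D4:**
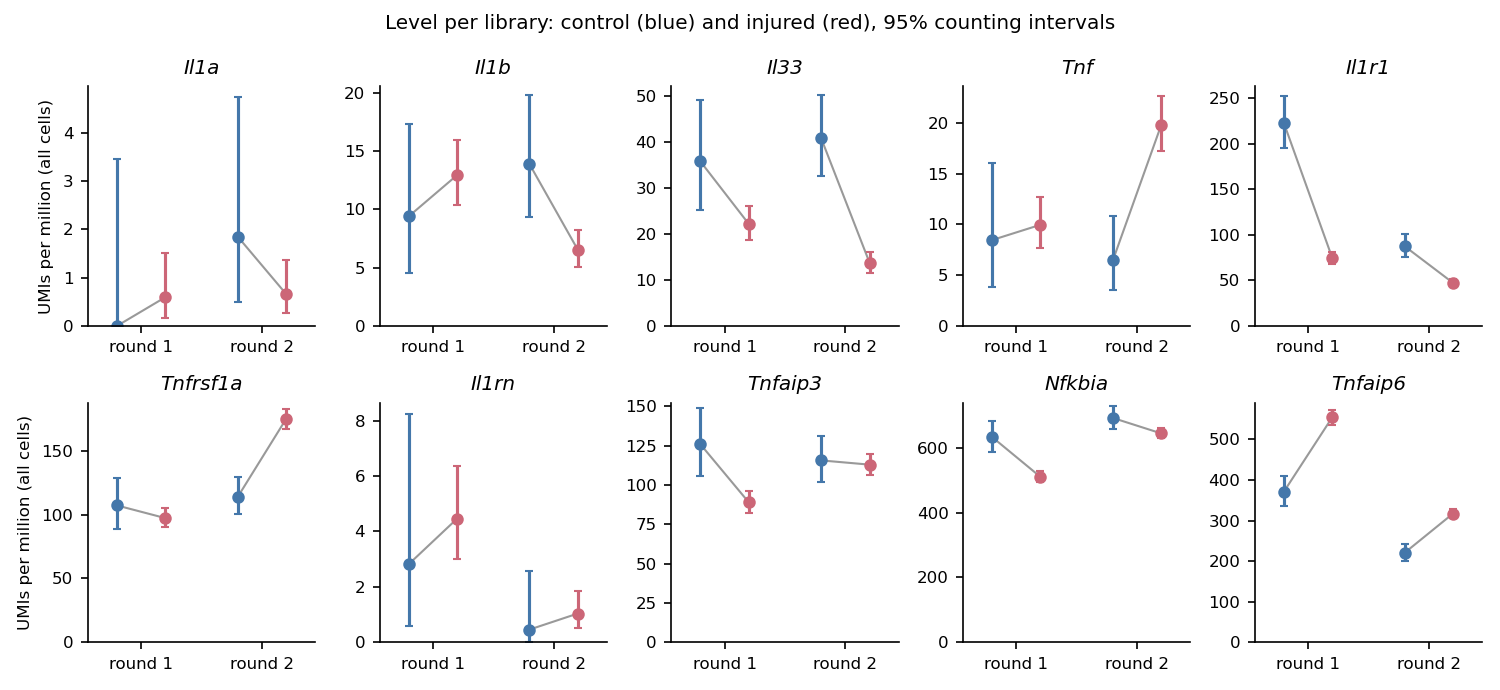
CPM of the 10 genes over all cells in control (blue) and injured (red) libraries of rounds 1 and 2, with exact Poisson 95% counting intervals; lines join the libraries of a round. Il33 and Il1r1 are lower and Tnfaip6 is higher in the injured library of both rounds, and Il1b and Tnfrsf1a go opposite ways in the 2 rounds.

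None of the 10 genes was called between injured and control discs by the edgeR fit on injury alone, in any of 4 sets of cells. In that fit 0.117% of 11990 genes were called in all cells, 0.0178% of 11230 in disc cells, 0% of 10851 in the inner annulus class and 1.91% of 5196 in the outer annulus class. Of the tested members, 2 had an unadjusted p under 0.05 in all cells (Il1r1 and Il33), 2 in disc cells (the same genes), 1 in the inner class (Il1r1) and 1 in the outer class (Il33), where 7.91%, 7.68%, 7.41% and 13.6% of all genes did. DESeq2 called 0 members in each set, where it called 1.51%, 1.1%, 0.829% and 1.96% of all genes. With the round as a block, 2 of 9 tested members were called in all cells, 1 of 7 in disc cells, 1 of 7 in the inner class and 1 of 6 in the outer class, all of them lower in injured discs. The shares of all genes called in those blocked edgeR fits were 6.14%, 3.79%, 7.55% and 11% in either direction, and 3.41%, 1.99%, 3.71% and 5.27% lower. Without the shared barcodes the blocked fits called 0 members in all cells (2.04% of genes called), 0 in disc cells (2.16%), 2 in the inner class (5.53%, 1 of the 2 being Tnf, which had 1 control UMI there) and 1 in the outer class (11%).

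The control level of Tnf in disc cells rested largely on shared barcodes. Disc cells had 92 UMIs of Tnf in the injured and 4 in the control libraries, a ratio of levels of 3.97 (95% counting interval 1.499 to 14.9). Of the 4 control UMIs, 3 were in cells with shared barcodes, and without these cells the ratio was 15.5 (2.71 to 618). In the inner annulus class the values were 6.00 and 7.32 CPM in control and injured discs of round 1, and 0 and 6.73 in round 2 (log2 fold change 1.74, SE 1.07, edgeR adjusted p = 0.757). Without the cells with shared barcodes 1 control UMI was left in this class, so Tnf passed the low-count filter of the fits only through the injured libraries, and its call in the blocked edgeR fit without those cells (3.76, adjusted p = 0.0410) is not used as support. Over all cells Tnf was 8.46 and 9.96 in round 1 and 6.48 and 19.8 in round 2 (log2 fold change 1.10, SE 0.55, adjusted p = 0.70).

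The antagonist Il1rn had 3, 30, 1 and 11 UMIs in all cells of the 4 libraries. Injured over control was 1.91 (95% counting interval 0.693 to 7.35), which includes equal levels. Without the shared barcodes the round 1 control library had 0 of its 3 UMIs, and the ratio was 7.37 (1.25 to 298), which does not. Both ratios compare pooled libraries and rest on 4 control UMIs and 1.

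Tnfaip6 encodes TSG-6, a secreted hyaluronan-binding protein that is induced by IL-1 and TNF and that limits inflammation and protease activity. It was a transcript of disc cells and was higher in injured discs of both rounds, with 371 CPM in control and 554 in injured discs of round 1, and 221 and 317 in round 2. The ratios were nearly equal, 1.49 and 1.44, but the control value of round 1 was above the injured value of round 2, so the groups overlapped. The log2 fold change was 0.60 (SE 0.44, edgeR adjusted p = 0.84). In the inner annulus class Tnfaip6 was 493 and 635 in round 1 and 236 and 349 in round 2. At 1000 UMIs per cell, 24.6% of control and 35.2% of injured inner annulus cells of round 1 had a Tnfaip6 UMI, and 12.7% and 23.6% in round 2. Without the shared barcodes the first share was 22.4%. In the outer class it was 216 and 148 in round 1 and 33.1 and 302 in round 2, opposite ways.

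Tnfaip6 also differed between clusters. In injured discs the cluster led by Mmp12, Mmp3, Cxcl1 and Nos2 had 868 and 728 CPM, and the cluster led by Il11 and Npy had 441 and 471. The Fmod and Comp cluster had 292 and 191, and the Cnmd cluster 406 and 216. The same Mmp12 and Mmp3 cluster had 1003 in the round 1 control library, where it held 48 cells, and 1075 without the shared barcodes. Outside the named classes, an unnamed cluster led by Ccl11 and Dpep1 had 1190 in the round 2 control library and held 136 of the 477 Tnfaip6 UMIs there. Macrophage-like cells of injured discs had 11.1 and 9.80, and their log2 difference from disc cells was -5.57 (SE 0.51, edgeR adjusted p = 5.41e-26).

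Tnfaip3 encodes A20, a ubiquitin-editing enzyme that shuts off NF-kappaB activation. Over all cells it was 126 CPM in control and 89.0 in injured discs of round 1, and 116 and 113 in round 2 (log2 fold change -0.19, SE 0.35, edgeR adjusted p = 0.95). The Mmp12 and Mmp3 cluster had 155 and 523 in the injured libraries, against 27.8 and 84.5 in the Fmod and Comp cluster. The Mmp12 and Mmp3 cluster of the round 1 control library had 264, and 288 without the shared barcodes, above the injured library of its round. Tnfaip3, Tnfaip6 and Tnf were each lower in the Fmod and Comp cluster than in the Mmp12 and Mmp3 cluster in both injured libraries. Macrophage-like cells had 100 and 343 in the injured libraries, and inner annulus cells had 96.2 and 150. This difference from disc cells did not pass the edgeR test (log2 difference 0.85, adjusted p = 0.0622). In the outer annulus class Tnfaip3 was 73.5 and 49.5 in round 1 and 42.6 and 20.5 in round 2.

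Nfkbia encodes I-kappaB alpha, the inhibitor that holds NF-kappaB in the cytoplasm and is resynthesised after each activation. Over all cells it was 632 CPM in control and 510 in injured discs of round 1, and 691 and 644 in round 2 (log2 fold change -0.13, SE 0.36, edgeR adjusted p = 0.98). The inner annulus class showed nearly no difference within a round, with 543 and 495 in round 1 and 820 and 815 in round 2. In the outer annulus class Nfkbia was 932 and 588 in round 1 and 589 and 245 in round 2 (log2 fold change -0.93, SE 0.51, edgeR adjusted p = 0.471). There the injured Aspn cluster of round 2 had 166, against 757 in the Myoc cluster of the same library. Macrophage-like cells had 518 and 1326 in the injured libraries and did not differ from disc cells by edgeR (log2 difference 0.40, adjusted p = 0.435). Endothelial-like cells had 1160 in the injured library of round 1. Among the 3 feedback genes, only Tnfaip6 was called between macrophage-like and disc cells.

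Across 13 sums of a class in a library with at least 20 cells, the genes whose level ranked most like each member were found among 11207 genes by Spearman's rho of log2(CPM + 1). The sums share libraries, and depth differs between them, so these values are descriptions. Il1b ranked most like Ctss and Itgb2 (rho 0.993 for each), and Cfp was among the genes most like Tnf (0.961), all genes of myeloid cells. Il33 ranked most like Arhgap20 (0.988) and Hoxa9 (0.980), and Il1r1 most like Srsf6 (0.945) and Paip2b (0.940). Tnfaip6 ranked most like Slc39a14 (0.951) and Col27a1 (0.949). Tnfaip3 ranked most like Plaur (0.890) and Sema4d (0.884), Tnfrsf1a like Phc2 and Btf3 (0.907 for each), and Nfkbia like Rpl35a (0.879) and Usp12 (0.874). Il1a and Il1rn had under 50 UMIs and were not searched.

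The other genes of the pathway were taken from 4 lists. Of 26 other IL-1 family genes, 22 had a UMI and 17 were tested in all cells, and the edgeR fit on injury alone called 0. Their median log2 fold change was 0.09, against -0.01 over all genes tested, and 2 had an unadjusted p under 0.05, where 7.91% of all genes did. With the round as a block 1 of the 17 was called, where 6.14% of all genes were. The IL-33 receptor Il1rl1 was 1.88 CPM in control and 20.8 in injured discs of round 1, and 11.6 and 29.6 in round 2. That 1 gene was Il1rl1, called higher (log2 fold change 1.93, edgeR adjusted p = 0.00996), and not in the blocked fit without the shared barcodes (2.10, adjusted p = 0.106). Nlrp3, the sensor of the inflammasome that processes IL-1 beta, was 0.940 and 4.31 in round 1 and 1.85 and 6.72 in round 2 (edgeR adjusted p = 0.561). Il18, another inflammasome cytokine, was 8.46 and 5.05 in round 1 and 11.1 and 4.64 in round 2 (adjusted p = 0.723). In the inner annulus class it was 8.997 and 4.88 in round 1 and 16.3 and 3.29 in round 2, called lower with the round as a block (edgeR adjusted p = 0.0498) and not without the shared barcodes (0.135). In disc cells, Il1rap, the co-receptor that Il1r1 and Il1rl1 share, was 9.501 and 30.9 in round 1 and 8.81 and 7.27 in round 2, opposite ways.

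Of 26 other TNF family genes, all had a UMI and 21 were tested in all cells, with 0 called by the edgeR fit on injury alone, 1 at an unadjusted p under 0.05 (all genes 7.91%) and a median log2 fold change of 0.15. Tnfrsf1b, the second TNF receptor, was 10.3 CPM in control and 26.2 in injured discs of round 1, and 3.24 and 15.3 in round 2. Its groups did not overlap, and it was the 1 of 21 called with the round as a block (all genes 6.14%), and higher (log2 fold change 1.81, edgeR adjusted p = 0.0130), and not without the shared barcodes (1.89, adjusted p = 0.0584). Ripk3, a kinase of necroptotic cell death, was 1.88 and 6.54 in round 1 and 5.55 and 14.3 in round 2 (adjusted p = 0.688). The lymphotoxin gene Ltb was 2.82 and 0.446 in round 1 and 3.70 and 1.04 in round 2 (adjusted p = 0.635). The lymphotoxin receptor gene Ltbr in outer annulus cells was 4.59 and 27.5 in round 1 and 26.0 and 70.0 in round 2, called higher with the round as a block (edgeR adjusted p = 0.0451). In disc cells the death domain kinase gene Ripk1 was 55.9 and 40.9 in round 1 and 58.9 and 28.6 in round 2 (adjusted p = 0.734).

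Of 26 other genes of NF-kappaB and its inhibitors, 26 were tested in all cells and 0 were called by the edgeR fit on injury alone, with 1 at an unadjusted p under 0.05 (all genes 7.91%) and a median log2 fold change of 0.02. The fit with the round as a block called 2 of the 26, where it called 6.14% of all genes. By that fit Bcl3, a nuclear I-kappaB family member, was called higher (5.64 and 19.3 CPM in round 1, 12.0 and 21.5 in round 2, edgeR adjusted p = 0.0491). Zfp36, which encodes a protein that destabilises Tnf mRNA, was called lower by the same fit (111 and 39.1 in round 1, 254 and 131 in round 2, adjusted p = 0.0221). The log2 fold change of Zfp36 was -1.14, and -1.18 without the shared barcodes, where edgeR did not call it (adjusted p = 0.0753). That of Bcl3 was 1.24, and 1.25 without them, where it was not called (adjusted p = 0.110). The A20-binding protein gene Tnip1 was 17.9 and 41.9 in round 1 and 17.6 and 19.98 in round 2. The phosphatase gene Dusp1 was 364 and 206 in round 1 and 1041 and 473 in round 2. In the outer annulus class it was 808 and 514 in round 1 and 712 and 265 in round 2, called lower with the round as a block (edgeR adjusted p = 0.0442), as was Zfp36 (adjusted p = 4.93e-05). Bcl3 passed the low-count filter there only through the injured libraries, so its call as higher (blocked edgeR adjusted p = 0.00828) is not used as support. In the inner class Bcl3 was called higher by the blocked edgeR fit (0.0168, and 0.0279 without the shared barcodes). Otulin, a deubiquitinase gene, was called lower in the inner class by the blocked fit (adjusted p = 0.0465) and not without the shared barcodes (0.0708). In disc cells the kinase gene Ikbke was 2.11 and 5.56 in round 1 and 1.65 and 3.43 in round 2.

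Of 30 genes that IL-1 and TNF are known to induce, 28 were tested in all cells. The edgeR fit on injury alone called 0, with 8 at an unadjusted p under 0.05 (all genes 7.91%) and a median log2 fold change of 0.47. With the round as a block 8 were called higher and 4 lower, where 6.14% of all genes were called, so the list did not move one way. The higher genes were the chemokines Ccl20, Cxcl1 and Cxcl2, the acute-phase genes Lcn2 and Saa3, the growth factor Csf2, Nos2 and Ier3, and the lower genes were Il6, Icam1, Irf1 and Has1. Ccl20 had 1 and 0 UMIs in the control libraries and passed the low-count filter only through the injured ones, so its call is not used as support. Lcn2 was 494 CPM in control and 1617 in injured discs of round 1, and 497 and 1329 in round 2 (blocked edgeR adjusted p = 0.00604). Saa3 was 6.58 and 26.0 in round 1 and 1.85 and 233 in round 2 (blocked adjusted p = 0.000879). The macrophage growth factor Csf2 was 0 and 29.7 in round 1 and 6.48 and 20.9 in round 2 (blocked adjusted p = 0.0103). In disc cells Ccl20 was 1.06 and 8.35 in round 1 and 0 and 4.24 in round 2.

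Il6, Icam1, Cxcl1 and Nos2 were singled out after their values were seen. Il6 was lower in injured discs of both rounds (56.4 and 19.6 CPM in round 1, 24.99 and 10.3 in round 2), as was the adhesion gene Icam1 (370 and 131, and 97.2 and 44.6). The inducible nitric oxide synthase Nos2 was higher in both (47.0 and 243, and 27.8 and 56.5), as was Cxcl1 (1269.5 and 3263, and 254 and 547). Without the shared barcodes the blocked edgeR fit still called Il6 (adjusted p = 0.0490), Lcn2 (0.0346) and Saa3 (0.0110), and not the other 9 of the 12 genes, whose adjusted p lay between 0.0521 (Cxcl2) and 0.184 (Irf1). In the inner annulus class that fit called Icam1 (adjusted p = 0.00200), Nos2 (0.00156) and Cxcl1 (0.0200) and did not call Il6 (0.0782). Outer annulus cells had Cxcl1 at 753 in control and 324 in injured discs of round 1, and at 104 and 73.8 in round 2, a difference that was not called (blocked edgeR adjusted p = 0.111). Cxcl2 there was 78.1 and 871 in round 1 and 4.73 and 111 in round 2 and was called higher by the blocked fit (adjusted p = 5.30e-09), as was Lcn2 (0.0198). Irf1 (32.1 and 8.24 in round 1, 137 and 31.4 in round 2) and Has1 (271 and 198, 230 and 80.3) were called lower there by the blocked edgeR fit (log2 fold changes -2.08 and -1.04, adjusted p = 0.000636 and 0.0491). Of the 19 listed genes tested in the outer class that fit called 5 higher (Cxcl2, Lcn2, Cd44, Ccl2 and Vcam1) and 2 lower, where it called 11% of all genes. In the outer annulus class Vcam1, another adhesion gene, had 0 UMIs in both control libraries and 33.0 and 36.4 CPM in the injured ones. It was at least 7.70-fold higher (3 UMIs over the group as the floor), it too passed the filter only through the injured libraries, and as with Il1rl1 its UMIs came from the Aspn and dividing clusters.

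Cells held only part of the transcripts captured. In the injured libraries 17.9% of all Il1b UMIs of round 1 (87 of 486) and 16.4% of round 2 (69 of 420) were in barcodes that counted as cells, and 9.26% (30 of 324) were in the control library of round 2. For Tnf the shares were 48.9%, 80.1% and 15.1%, and for Tnfaip6 94.6%, 89.0% and 64.8%, in the same order. The control library of round 1 was deposited with only 444 barcodes of at least 502 UMIs and cannot be described in this way. In barcodes under 100 UMIs, Il1b was 218 CPM in the injured library of round 1, 67.9 in that of round 2 and 44.7 in the control library of round 2, each above the level in the cells of the same library (12.9, 6.53 and 13.9).

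Neutrophil markers were high among these small barcodes. Their list (8 genes, S100a8 and S100a9 among them) summed to 34244 CPM in barcodes under 100 UMIs of the injured library of round 1, 2543 in that of round 2 and 3679 in the control library of round 2. In cells it summed to 46.7, 19.3 and 6.48. Among barcodes with at least 100 UMIs and under 250 genes, 514, 8 and 33 had at least 5% of their UMIs in the list, and these held 13, 12 and 1 UMIs of Il1b. The part of neutrophils in the level of Il1b was not tested. The Il1b levels of cells given above are those of barcodes with at least 250 genes and miss this RNA.

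**Figure D5:**
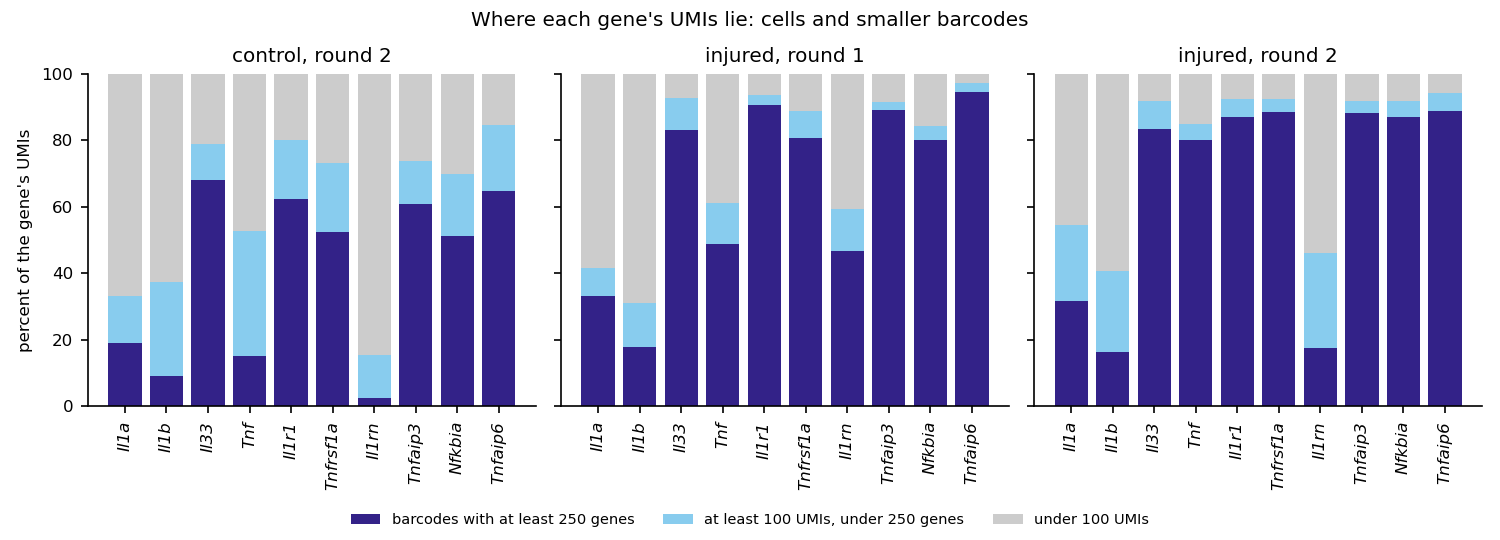
Share of each gene's UMIs (percent) that lay in cells (at least 250 genes, dark), in smaller barcodes of at least 100 UMIs (light blue) and in barcodes under 100 UMIs (grey), for the 3 libraries with all barcodes deposited. Il1a, Il1b and Il1rn lie mostly outside cells in all 3, and Tnfaip6 mostly within them.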

How the data were processed

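The deposited values are UMI counts for each gene and barcode. They came from Cell Ranger (version 6.0.0 for the round 1 control library and 4 for the others, per the file headers) and genome build mm10, per the submitters' processing notes. The 10 genes, the gene lists, the marker lists and the naming rule were chosen with earlier results of these data known. Cells had at least 250 genes and genes were kept if seen in at least 5 cells, as the series text states. Cells were clustered with scanpy 1.11.5 (2000 variable genes without the 10 members, 30 principal components, 20 neighbours, Leiden resolution 1, leidenalg 0.10.2). A cluster was named from at least 3 markers with UMIs in at least 25% of its cells and at 1.2 times the mean of the others, unless its 10 leading genes, its depth or shared barcodes went against the name. Doublets were not removed from the reported values, and the alternative left out 3, 0, 1 and 7 cells with high Scrublet scores.

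Counts were summed per library and cell set and tested with edgeR 4.0.16 in R 4.3.3: filterByExpr, TMM, quasi-likelihood F-test, two-sided, Benjamini-Hochberg over all genes tested, called at an adjusted p under 0.05. SE is the absolute log2 fold change over the square root of F. DESeq2 1.42.0 was an alternative. The script recovered known changes on simulated data. Same-numbered libraries come from the same animals, per the labels, and deviated together (Pearson r = 0.528 over 11990 genes), so the fit with the round as a block is given where it changes a call of a gene discussed. Whether the 2 rounds used separate animals is not stated in the labels.

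Shares of cells were computed exactly for thinning to 1000 UMIs. Counting intervals are 95% Poisson or Clopper-Pearson intervals, the floor for a count of 0 is 3 counts, and both cover counting error only. Total UMIs in cells were 1064193, 6727076, 2161114 and 10558620 (control and injured round 1, control and injured round 2). Named genes are the 10 members, the 3 listed genes per list with the lowest p in all cells and in disc cells, and the 2 genes most like each member, of which 1 is not reported here. Alternatives were the block, each library left out, DESeq2, no low-count filter, other cell filters, no shared barcodes, no doublets, Leiden resolution 0.5 and clustering with the members.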

Additional observations from a re-analysis of the deposited data

Results flagged for a closer look

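Levels of 3 members in barcodes under 100 UMIs were above those of the round 2 control library in both injured libraries with 95% counting intervals that did not overlap, as were those of 3.81% of the 23492 genes with a UMI there. Il1b was at 218 CPM in the injured library of round 1 and 67.9 in that of round 2, against 44.7 in the control. Tnfrsf1a was at 59.2 and 42.0, against 27.7, and Tnfaip6 at 70.9 and 58.9, against 24.6. Nfkbia was higher in the injured library of round 1 and lower in that of round 2 (437 and 170, against 192). Only 1 control library lists such barcodes, so the difference was not tested.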

How the results depend on the processing

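The member counts between injured and control discs changed with the design. With the replicate block, which pairs the rounds, 2 members were called over all cells, 1 over disc cells, and 1 for each annulus class, against 0 each without it. The block without shared barcodes, added after seeing the data, called 0, 0, 2 and 1. Without a low-count filter 1 was called in the outer class (Il33, edgeR adjusted p = 0.0371, all genes 1.75%). Leaving out each library in turn called 0 to 1 in the inner class (1 without control replicate 2, Il1r1, edgeR adjusted p = 0.0182, all genes 0.64%), 0 to 2 in the outer class (Tnfaip6, 0.0336, without control replicate 1, all genes 2.95%, and Il33, 0.0102, with Nfkbia, 0.0448, without injured replicate 1, all genes 7.32%) and 0 over all cells or disc cells. The library left alone in a group is then assumed to vary like the other group. The 6 calls between macrophage-like and disc cells became 5 with DESeq2 (all genes 10.8%) and 7 without the low-count filter (11.7%). They stayed 6 in the other alternatives run (14.7% to 22.3%). At Leiden resolution 0.5 no macrophage class formed, so that comparison was not run there.

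Il1b in all cells changed sign with at least 500 genes (log2 fold change 1.28), without shared barcodes (0.27) and with the block without shared barcodes (0.20). In the outer class Tnfaip3 changed sign in the Myoc cluster only (0.66, and 0.75 with the replicate block), and Nfkbia at Leiden resolution 0.5 (0.10). Leaving out 1 library also turned the sign of small differences: the lowest and highest log2 fold changes in all cells were -0.74 and 0.16 for Il1b, -0.15 and 0.78 for Tnfrsf1a, -0.022 and 2.57 for Il1rn, -0.40 and 0.018 for Tnfaip3, and -0.34 and 0.075 for Nfkbia. In disc cells they were -0.15 and 0.76 for Tnfrsf1a, -0.37 and 0.0071 for Nfkbia, and -0.23 and 1.81 for Il1rap. In the inner class they were -0.88 and 0.13 for Il33, -0.33 and 0.71 for Tnfrsf1a, -0.70 and 0.094 for Tnfaip3, and -0.39 and 0.49 for Nfkbia. In the outer class they were -0.99 and 0.47 for Il1r1 and -0.021 and 1.09 for Tnfrsf1a. The cause of these changes was not tested.

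Thinned to 500 UMIs, the share with Tnf in macrophage-like cells of injured round 2 was 17.4%. In inner annulus cells (control and injured round 1, then round 2) it was 8.94%, 3.52%, 5.07% and 2.41% for Il1r1 and 12.9%, 22.2%, 7.23% and 13.9% for Tnfaip6. Of the fold changes of the 10 genes under the alternatives, 464 kept direction and side of the threshold, 13 newly passed it, 1 no longer did and 22 changed sign. Depth limits Il1a, Il1rn and Tnf in disc cells.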
